A study of Mus musculus with 10 samples.

Results

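The RIKEN 1700-series genes are mouse genes that still carry the identifier of a full-length cDNA clone, with names that start with 1700 and end in Rik, the prefix given to clones of an adult testis library. Members were chosen by name alone: a row of the deposited array table had to be annotated with exactly 1 gene symbol of this form, and a gene with several rows was represented by the row with the highest mean over all 10 arrays. This gave 127 genes of 19661 with 1 annotated symbol. All but 1 of them had a single row. 3 further rows were annotated with such a name together with another gene and are not members.

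Affymetrix Mouse Gene 1.0 ST arrays were used to measure whole testis RNA of 10 mice, with 1 mouse per array. Of these, 5 were wild-type (WT), and the other 5 lacked a functional Crem gene (KO). KO mice are homozygous for a Crem gene disrupted by a neomycin resistance cassette in every cell, so the loss is neither limited to germ cells nor to the adult. Both groups were of the mixed 129Pas x C57Bl/J strain, 8 weeks old, untreated and killed at 0 h, when the light phase starts. The arrays fall into 4 batches per the labels: batch 2 held 3 WT arrays and 1 KO array, batch 4 held 3 KO arrays and 1 WT array, and batches 1 and 3 held 1 array each, KO replicate 2 and WT replicate 4.

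CREM is a transcription factor that binds cAMP response elements (CRE), of which TGACGTCA is the full palindrome and TGACG the core. In the testis its activator form appears in germ cells after meiosis, where it drives genes needed to turn round spermatids into sperm, and mice without it are known to stop at the round spermatid stage. Clone-named genes are genes for which no function had been settled when they were named. Many encode small proteins, and others are long non-coding RNAs or pseudogenes that are transcribed in the testis.

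Levels are given on the log2 scale of the array. A level also depends on the probes of a gene, so that levels compare arrays and not genes. The Crem row itself was at 10.95 ± 0.06 (SD, n = 5) in WT and 9.24 ± 0.15 in KO, a change of −1.71 ± 0.07 (SE, adjusted p = 3e-10), with no overlap between the groups. Which of its probes lie in the disrupted part is not known here. Arrays correlated at Pearson r of 0.992 to 0.995 within a genotype and 0.936 to 0.952 across genotypes. Of the reference genes of spermatids and sperm, 26 of 32 were lower in KO and 3 higher (median −4.11), and their mean level was 11.92 to 12.08 in the WT arrays and 8.35 to 9.34 in the KO arrays. This list includes genes that the study picked on these same samples, so its falls are in part fixed in advance. Of spermatocyte genes 10 of 17 were higher and 1 lower (median 0.23), and of spermatogonial genes 4 of 14 were higher and 2 lower. Leydig cell genes were higher in 7 of 8 (mean level 9.57 to 9.76 in WT, 9.94 to 10.55 in KO), macrophage genes in 8 of 9 (7.25 to 7.36 and 7.67 to 8.34), peritubular and endothelial genes in 4 of 9 (7.50 to 7.61 and 7.99 to 8.15) and Sertoli cell genes in 3 of 13 (8.24 to 8.38 and 8.29 to 8.56), with none lower in these 4 lists. The 4 peritubular and endothelial genes called higher were Tek (2.05), Cdh5 (1.15), Vwf (0.58) and Myh11 (0.21). Acta2, Cnn1, Tagln, Kdr and Pecam1 of that list were not called. Epididymis genes stood at 5.32 to 5.87 in WT and 5.22 to 5.36 in KO. Over all genes, 31.1% were called higher and 13.2% lower, so the rises of spermatogonial and Sertoli cell genes do not exceed that background. Marker RNA of several lists differs between the genotypes together with the members described below. The part of these cell populations in the members' changes was not tested. In whole testis RNA, fewer cells of a type and less RNA per cell cannot be told apart.

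In WT testis the members stood high on the array. Their median WT level was 9.89 against 7.41 for all genes, with a range from 5.75 (1700010L04Rik) to 12.43 (1700028J19Rik). 80 of 127 members (63.0%) lay among the top 25% of all genes by WT level, above 9.04, and 4 (3.15%) among the lowest 25%, below 6.26. Because the names come from clones of an adult testis library, high WT testis levels are in part built into the choice of members. Protein-coding members had a median WT level of 10.35, beside 7.52 for all protein-coding genes. Long non-coding members had one of 8.41, beside 6.57 for all long non-coding genes.

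The members with the highest WT levels did not share a response. 1700028J19Rik, a long non-coding RNA, was at 12.33, 12.37, 12.26, 12.46 and 12.71 in WT replicates 1 to 5 and at 12.55, 12.20, 12.60, 12.78 and 12.76 in KO replicates 1 to 5. 1700018B24Rik, a transcribed pseudogene, ranged from 12.31 to 12.56 in WT and from 12.37 to 12.58 in KO. 1700001L05Rik, a long non-coding RNA, ranged from 12.12 to 12.25 and from 11.96 to 12.25. The groups overlapped for these 3 genes and none of them was called, with changes of 0.15 ± 0.11, 0.06 ± 0.07 and −0.10 ± 0.07 (adjusted p = 0.317, 0.506 and 0.229). With the arrays centred on housekeeping genes, 1700001L05Rik was called lower (−0.20, adjusted p = 0.0295) and the change of 1700018B24Rik had the other sign (−0.03). Most of these housekeeping genes were themselves called changed, as given below. Protein-coding 1700010I14Rik rose slightly, from 12.42 ± 0.10 to 12.74 ± 0.17 (0.31 ± 0.08, adjusted p = 0.00762), a call that ended with the arrays centred on housekeeping genes (0.22, adjusted p = 0.0864). Its change was 0.16 in batch 2 alone and 0.37 in batch 4 alone (adjusted p = 0.337 and 0.126), where 1 group had a single array. 1700006J14Rik, the next highest of the members not called, ranged from 11.73 to 12.31 in WT and from 12.07 to 12.32 in KO (0.22 ± 0.10, adjusted p = 0.105), and it was called higher without WT replicate 5 (0.31, adjusted p = 0.012). In the same way 1700028J19Rik was called higher without KO replicate 2 (0.25, adjusted p = 0.0479). The remaining 2 of the 6 highest, 1700029H14Rik and 1700016H13Rik, were among the largest falls of the series.

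Next, KO was compared with WT to find which members changed in the testis without Crem. Of 127 members, 60 were down-regulated (47.2%), 27 were up-regulated (21.3%) and 40 were not called at an adjusted p of 0.05. Among all 19661 genes, 13.2% were down-regulated and 31.1% up-regulated. The falls were also larger: 42 members (33.1%) fell by at least 1 in log2, 35 (27.6%) by at least 2 and 13 (10.2%) by at least 4, beside 4.36%, 2.33% and 0.783% of all genes. A rise of at least 1 was called for 1 member (0.787%), beside 1.37% of all genes, and that member (1700073E17Rik) rose by less than 1 without WT replicate 5 (0.92). The median change of the members was −0.19 against 0.07 for all genes. The median change among members called lower was −2.33, and that among members called higher was 0.47. For 81 members (63.8%) the call came with no overlap between the WT and KO arrays, which held for 32.3% of all genes.

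**Figure D1:**
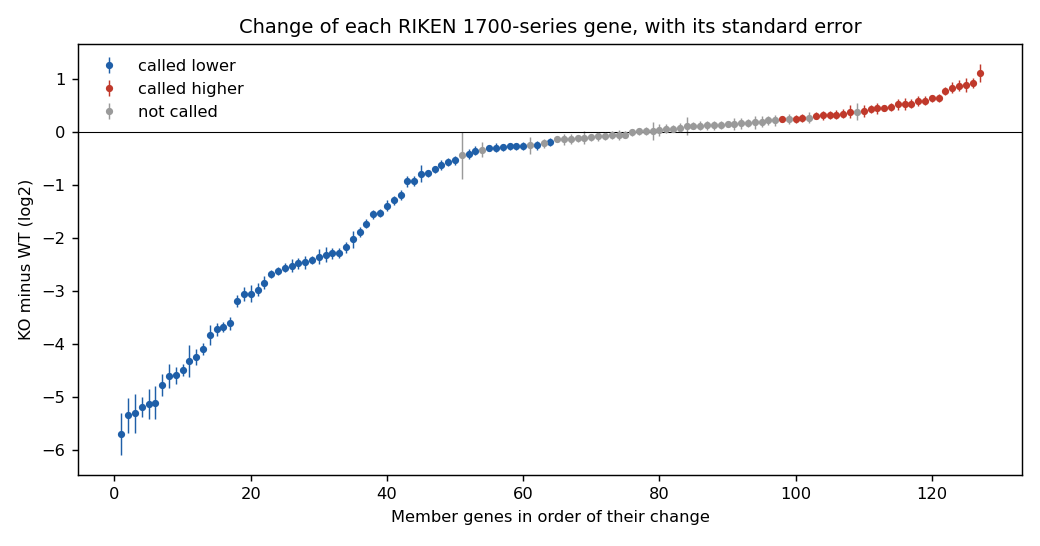
KO minus WT change (log2) of the 127 members in order of their change, with bars for the standard error of the fit. Blue points are the 60 members called lower, red the 27 called higher and grey the 40 not called. The left end of the curve runs down to −5.70, whereas the right end stops at 1.12.

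With the arrays centred on 8 housekeeping genes, the members called lower and higher were 65 and 19. As deposited, 4 of these 8 genes were themselves called higher and 2 lower, with a median change of 0.13. They are therefore not a fixed reference. The list named 12 genes, of which 8 were measured. B2m had been left out of it because an earlier result of these data showed it to rise. All genes were split into 2599 lower and 6106 higher as deposited and into 3687 and 3666 with that centring, so the background of small rises depends on the scale. The 42 members that fell by at least 1 were called lower in every alternative in which they were tested, other than the test against a minimum change of 1, which called 40 of them.

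A fall of at least 4 is only possible for a gene well above its lowest signal, which in part fixes where such falls are found. Over the whole array, 151 of the 154 falls of at least 4 were found among the top 25% of genes by WT level, and all 13 members that fell by at least 4 lay there too. Within that class, 38 of 80 members were lower (47.5%), 30 of them by at least 1 (37.5%), beside 21.8% and 11.7% of all genes of the class. There 17 members were higher (21.2%), beside 46.1% of all genes of the class. Between the median of all genes and that class 17 of 34 members were lower and 8 higher, beside 12.9% and 42.3% of all genes there. Below the median and down to a level of 6.26, 4 of 9 were lower and 2 higher, beside 11.6% and 21.4%. Of the 4 members below that level 1 was lower and none higher, beside 6.55% and 14.5%.

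**Figure D2:**
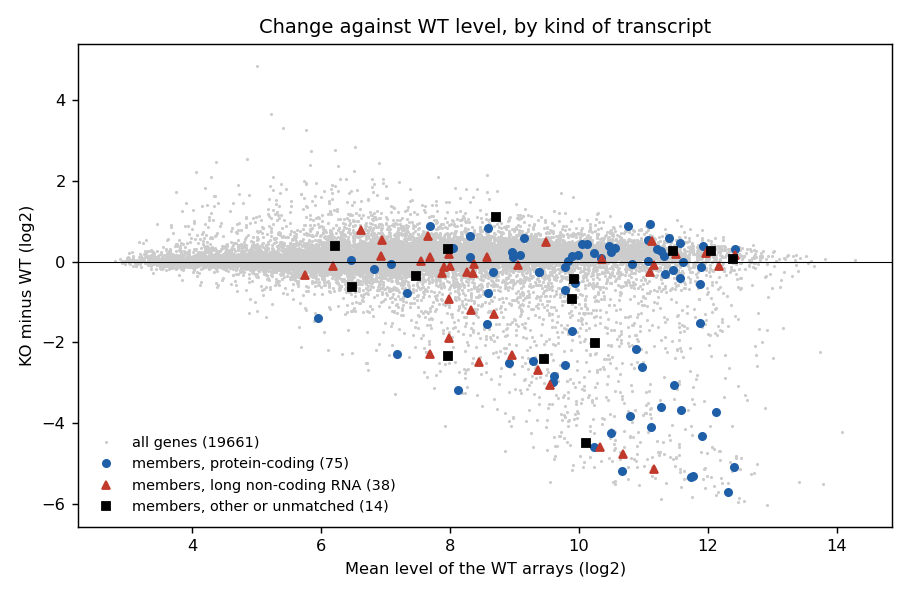
KO minus WT change (log2) against the mean level of the 5 WT arrays (log2) for all 19661 genes (grey) and for members that are protein-coding (blue circles), long non-coding RNAs (red triangles) or pseudogenes or without a RefSeq match (black squares). Members with falls of 4 or more stand at WT levels above 10, and genes of low level have no room for such a fall.

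The protein-coding members held 9 of the 13 falls of at least 4. This is 12.0% of these members, beside 7.89% of the long non-coding members, a difference that was not tested. Of 75 protein-coding members, 38 were lower (50.7%) and 18 higher, with a median change of −0.21, while 13.2% of all protein-coding genes were lower and 32.4% higher. 1700016H13Rik showed the largest fall. Its level was 12.32, 12.44, 12.20, 12.42 and 12.19 in WT replicates 1 to 5 and 6.58, 7.56, 7.91, 5.59 and 5.43 in KO replicates 1 to 5. The KO arrays lay more than 4 log2 units under every WT array and spread over more than 2 units among themselves. The change was −5.70 ± 0.40 (adjusted p = 5.9e-08), which is 52.0-fold and leaves 1.92% of the WT signal.

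1700093K21Rik, on chromosome 11, was at 11.79, 11.94, 11.69, 11.64 and 11.66 in WT and at 6.25, 7.34, 7.33, 5.48 and 5.59 in KO (−5.35 ± 0.32, adjusted p = 1.2e-08). 1700009N14Rik was at 11.90, 12.26, 11.80, 10.97 and 11.94 in WT and at 6.25, 7.40, 7.50, 5.64 and 5.52 in KO (−5.31 ± 0.37, adjusted p = 6.4e-08). In both genes KO replicates 2 and 3 were the highest of the KO arrays, and WT replicate 4 stood lowest of the WT arrays. 1700016C15Rik fell from 10.68 ± 0.12 to 5.49 ± 0.48 (−5.19 ± 0.18, adjusted p = 3.7e-11) and 1700029H14Rik from 12.41 ± 0.10 to 7.31 ± 0.86 (−5.10 ± 0.31, adjusted p = 1.2e-08). 1700016D06Rik, 1700034E13Rik and 1700001K19Rik followed with changes of −4.61, −4.32 and −4.25. No WT and KO array overlapped for any of these genes.

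A second tier of protein-coding members kept more signal. 1700019N19Rik ranged from 11.88 to 12.31 in WT and from 8.13 to 8.86 in KO, so that 7.58% of the signal was left. 1700013G24Rik ranged from 11.34 to 11.77 and from 7.66 to 8.10, with 7.79% left. 1700129C05Rik, which fell by 1.53 on the log2 scale, ranged from 11.82 to 11.96 and from 10.22 to 10.59, with 34.7% left. The arrays of these 3 genes did not overlap between the groups, and the KO levels of the last gene remained high on the array.

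**Figure D3:**
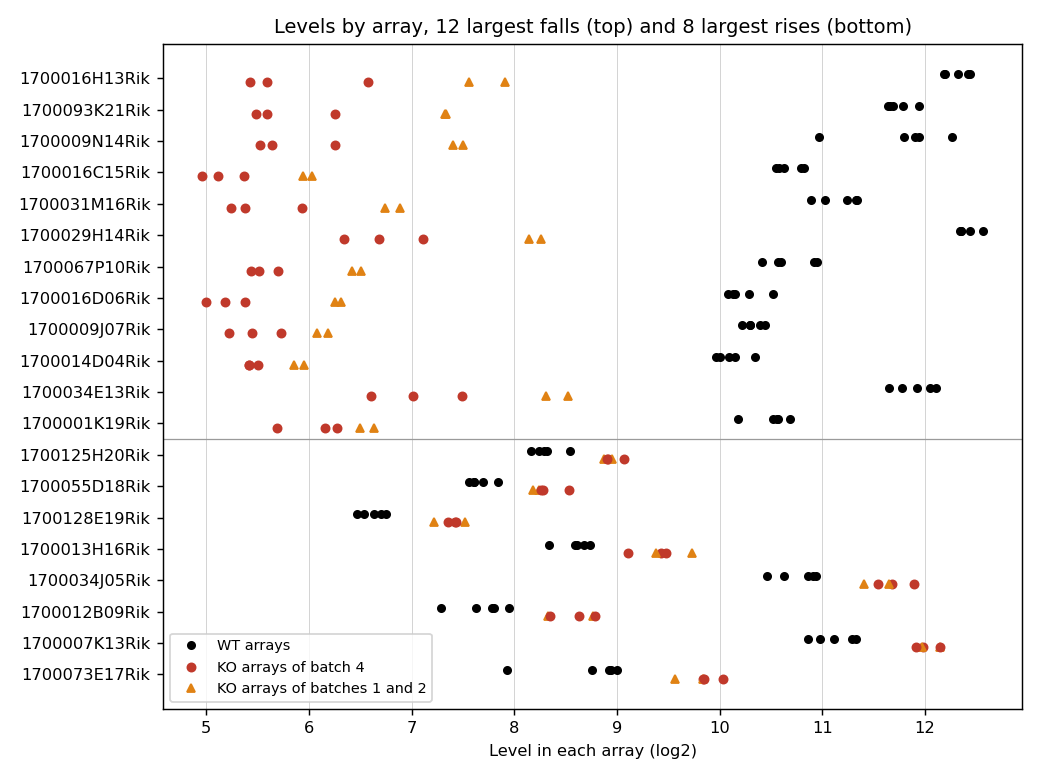
Level of each array (log2) for the 12 members with the largest falls (top) and the 8 with the largest rises (bottom) among those with no overlap between groups. Black points are the 5 WT arrays, red circles the 3 KO arrays of batch 4 and orange triangles the KO arrays of batches 1 and 2. In the falls the triangles lie to the right of the red circles, whereas in the rises they are mixed.

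The non-coding members took part in the fall. Of 38 long non-coding RNAs, 15 were lower (39.5%) and 5 higher, with a median change of −0.11, and 17.0% of all long non-coding genes were lower and 13.4% higher. 1700031M16Rik was at 11.33, 11.34, 10.89, 11.24 and 11.03 in WT and at 5.93, 6.74, 6.89, 5.24 and 5.38 in KO. 1700067P10Rik was at 10.60, 10.92, 10.41, 10.95 and 10.57 in WT and at 5.70, 6.42, 6.51, 5.51 and 5.44 in KO. These 2 genes and 1700009J07Rik changed by −5.13, −4.77 and −4.59 (SE 0.28, 0.20 and 0.15, adjusted p = 3.6e-09, 2.7e-10 and 2.6e-11), with at most 4.14% of the WT signal left. Other long non-coding members with a high WT level kept it, such as 1700028J19Rik above.

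Of the 8 transcribed pseudogenes, 2 were lower and 4 higher, beside 19.6% and 11% of all transcribed pseudogenes, so that the falls are near the background. 1700022A21Rik fell by 2.41 on the log2 scale, with 9.41 to 9.54 in WT and 6.93 to 7.22 in KO. Pseudogenes can share probes with the gene they derive from: 1700123L14Rik carries the RefSeq synonym Nup50, the name of a nuclear pore protein, and its rise of 0.25 ± 0.08 (adjusted p = 0.0182) may include signal of the parent gene. Of the 5 members without a RefSeq match 4 were lower, led by 1700014D04Rik (−4.49 ± 0.11, adjusted p = 3.4e-12), and none higher, beside 17.5% and 11.2% of all genes without a match.

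The other calls were of moderate size. 7 members fell by 1 to 2, with 1700010H22Rik (−1.89) and 1700025H01Rik (−1.19) at the ends of this range. A further 18 members fell by less than 1, from 1700049L16Rik (−0.94), a transcribed pseudogene, to 1700066B19Rik (−0.19). Of all genes 13.2% were lower, 4.36% by at least 1 and 2.33% by at least 2, beside 47.2%, 33.1% and 27.6% of the members. The median change of all genes called lower was −0.58, so most of their falls were also smaller than 1. The 40 members not called had median levels of 9.91 in WT and 9.94 in KO. The 122 members with a RefSeq match were spread over every autosome and the X chromosome. Falls of at least 1 were found on all of these chromosomes other than 9, 13 and X, which hold 9, 3 and 3 members. The shares of all genes on each chromosome were not computed. The list of chromosomes is therefore a description of few members that was not tested.

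A neighbouring pair behaved differently. 1700030C12Rik, a long non-coding RNA, directly precedes 1700093K21Rik in the RefSeq gene order of chromosome 11. It was at 11.18, 11.07, 11.13, 11.21 and 11.28 in WT and at 11.14, 11.17, 10.88, 11.25 and 11.05 in KO. Its groups overlapped and its change was −0.08 ± 0.07 (adjusted p = 0.461), while its neighbour fell by 5.35. The difference between both changes was not tested, and the pair was picked after the values were seen, as the only 2 members adjacent in that order.

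Few members have a known product, and those were picked by their RefSeq synonyms. 1700019D03Rik is smAKAP, a small membrane anchoring protein that binds the cAMP-dependent protein kinase. It was at 10.92, 10.89, 10.93, 10.92 and 10.74 in WT and at 8.47, 9.13, 8.73, 8.60 and 8.59 in KO, with no overlap and 22.1% of the signal left (−2.18 ± 0.11, adjusted p = 1e-09). 1700016K19Rik is Liat1, a ligand of the arginyltransferase ATE1. It ranged from 11.22 to 11.44 in WT and from 11.41 to 11.55 in KO and was not called (0.14 ± 0.06, adjusted p = 0.0676). 1700074P13Rik is Tryx5, a trypsin-like serine protease by name, and ranged from 11.22 to 11.64 in WT and from 11.12 to 11.37 in KO (−0.21 ± 0.08, adjusted p = 0.0592). Of these genes only smAKAP passed the test.

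The rises were small. 1700073E17Rik, a transcribed pseudogene, showed the largest, with 8.94, 9.0, 8.92, 8.76 and 7.93 in WT and 9.84, 9.57, 9.84, 10.03 and 9.85 in KO (1.12 ± 0.17, adjusted p = 0.00017). Within batch 2 alone its change was 0.88 and within batch 4 alone, whose only WT array is WT replicate 5, it was 1.98. WT replicate 5 was far below the other WT arrays, and the KO arrays lay above all of them. 1700007K13Rik, a protein-coding gene with the RefSeq synonym Rbest47, was at 11.29, 11.33, 10.98, 11.11 and 10.86 in WT and at 11.98, 11.97, 12.15, 12.15 and 11.91 in KO. It rose 1.89-fold (0.92 ± 0.09, adjusted p = 2.9e-06), with 0.95 in batch 2 and 1.15 in batch 4. 1700013H16Rik, an X-linked gene with the RefSeq synonyms Slx2 and Xlr6, was at 8.34, 8.61, 8.74, 8.68 and 8.59 in WT and at 9.43, 9.73, 9.38, 9.48 and 9.11 in KO (0.84 ± 0.11, adjusted p = 2.5e-05). By these names it belongs to a family with several similar X-linked copies, so that its signal may come from several of them.

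Among the other rises, 1700012B09Rik, 1700034J05Rik and 1700125H20Rik are protein-coding and changed by 0.88, 0.87 and 0.63. 1700128E19Rik and 1700055D18Rik are long non-coding RNAs and changed by 0.77 and 0.64. None of these 8 rises passed the test against a minimum change of 1, and all 8 kept their direction and call in the other alternatives tried. In batch 2 alone and batch 4 alone these calls rest on a single KO or WT array, which is assumed to vary like the others. The other 2 X-linked members, 1700031F05Rik and 1700080O16Rik, were lower by 0.79 and 0.27 on the log2 scale. 1700025G04Rik, the member with 2 rows, fell by 0.71 (SE 0.06, adjusted p = 4.5e-07) in the brighter row used here, while the dimmer row gave 0.22 ± 0.09 and was not called (adjusted p = 0.0604).

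The members nearest to the threshold moved little. 1700066B19Rik changed by −0.19 ± 0.07 (adjusted p = 0.0467) and 1700116B05Rik by −0.25 ± 0.09 (0.0322), and on the other side 1700006A11Rik changed by 0.25 ± 0.09 (just above the threshold) and 1700020D05Rik by 0.27 ± 0.10 (0.0543). The WT and KO arrays overlapped for all 4. 1700066B19Rik had a change near 0 within batch 4 alone (−0.0012). It was not called with batch as a fixed block (−0.19, adjusted p = 0.173) but stayed called with batch as a random block (−0.19, adjusted p = 0.0489). It lost its call without any 1 of KO replicates 3, 4 and 5 and WT replicates 1 to 4 (adjusted p from 0.0551 to 0.12). 1700116B05Rik lost its call without any 1 of KO replicates 1 to 3 and WT replicates 1, 2 and 5 (0.0511 to 0.0797). Conversely, 1700006A11Rik was called higher without WT replicate 3 (0.00425) or 5 (0.0419), and 1700020D05Rik without WT replicate 4 (0.0479) or 5 (0.037).

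The KO arrays differed from each other in the members with the largest falls. All 13 members that fell by at least 4 had a larger SD over the KO arrays than over the WT arrays, with a median of 0.61 against 0.15. Their median signal left was 5.25% in KO replicate 2, 5.18% in KO replicate 3, 3.11% in KO replicate 1, 2.51% in KO replicate 4 and 2.59% in KO replicate 5. The highest KO array was replicate 3 in 8 of these members and replicate 2 in the other 5, and the lowest was replicate 5 in 8 and replicate 4 in 5. For the 22 members that fell by 2 to 4 the median SD was 0.21 in KO and 0.18 in WT, and for the 27 members that rose it was 0.14 in both groups.

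The KO arrays with more signal left were those outside batch 4. The reference genes of spermatids and sperm showed the same split, with mean levels of 9.31 and 9.34 in KO replicates 2 and 3 and of 8.81, 8.52 and 8.35 in KO replicates 1, 4 and 5. Batch and the state of the single mice cannot be told apart here. Within batch 2 alone the median change of the 13 members was −4.28 and within batch 4 alone −5.02, beside −4.77 over all arrays. Without KO replicates 2 and 3, the members called lower and higher were 58 and 28, and the change of 1700016H13Rik was −6.45. The KO mean levels of the 13 members lay between 5.49 and 7.59, beside a median WT level of 7.41 for all genes. No detection limit was available here to separate signal from background. The percentages left are therefore estimates of the array signal and not of the RNA.

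**Figure D4:**
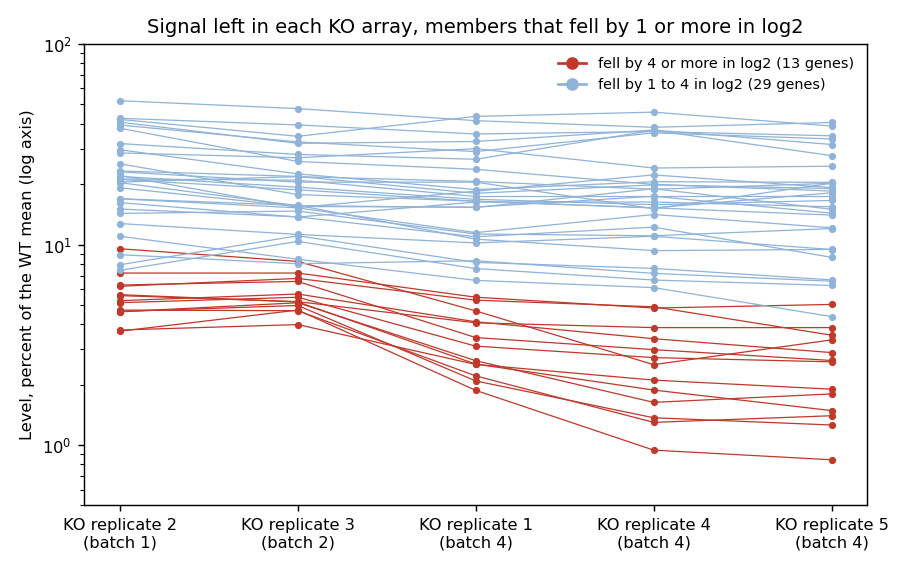
Signal of each KO array in percent of the mean WT signal, after undoing the log2 (log axis) for the 42 members called lower by at least 1 in log2, with 1 line per gene and the arrays in order of batch. Red lines are the 13 members that fell by 4 or more, for which the median left was 5.25% and 5.18% in the arrays of batches 1 and 2 and 2.51% to 3.11% in those of batch 4. Blue lines are the other 29 members.

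1700104B16Rik had the largest SD over the KO arrays, 1.26, without being called. It was at 9.84, 10.04, 10.09, 9.78 and 9.91 in WT and at 7.29, 9.60, 10.19, 10.32 and 10.06 in KO. KO replicate 1 alone stood low, and the other KO arrays surrounded the WT arrays. The change was −0.44 ± 0.45 (adjusted p = 0.481), and 0.11 without that array.

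Because CREM binds CRE, the 250 bases before the annotated start of each gene were searched for the full CRE TGACGTCA and for the core TGACG on both strands, where each full site also counts as a core. RefSeq promoters (GRCm38.p6) were matched for 96 of 127 members. A full CRE was present in 2 of them (2.08%), beside 1.77% of 27025 genes in the promoter table and 2.34% of 15353 genes with a level on the array. Neither was called changed: 1700066M21Rik had a change of 0.12 ± 0.09 (adjusted p = 0.323) and 1700084E18Rik of 0.01 ± 0.07 (adjusted p = 0.925). Their sequences are shown because they hold the full site, 30 and 37 bases before the start, with the site in capitals and up to 25 bases on each side: 1700066M21Rik at chr1:57377565-57377619 (plus strand) and 1700084E18Rik at chr2:30237636-30237693 (minus strand).
1700066M21Rik: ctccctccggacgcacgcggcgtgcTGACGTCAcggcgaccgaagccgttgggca
1700084E18Rik: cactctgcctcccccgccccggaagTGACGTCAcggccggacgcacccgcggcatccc

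A core was present in 29 of 96 members (30.2%), beside 19.8% of the promoter table and 24.0% of the genes on the array. By direction, it was present in 16 of 42 members called lower (38.1%), in 3 of 20 called higher (15.0%) and in 10 of 34 not called (29.4%), beside 28.0%, 26.9% and 21.3% of all genes of these classes. Among members that fell by at least 2 it was present in 6 of 24 (25%), beside 21.7%. The share thus did not rise with the size of the fall, and the differences between classes were not tested. The 6 sequences of the latter class are printed because they accompany changes from −2.18 to −5.70, with the core or its reverse complement CGTCA in capitals: 1700016H13Rik at chr5:103655749-103655803 (minus strand), 1700019N19Rik at chr19:58793820-58793874 (minus strand), 1700001O22Rik at chr2:30801738-30801788 (minus strand), 1700120B22Rik at chr10:63244173-63244227 (minus strand), 1700034I23Rik at chr3:40902520-40902574 (minus strand) and 1700019D03Rik at chr1:52953615-52953661 (minus strand).
1700016H13Rik: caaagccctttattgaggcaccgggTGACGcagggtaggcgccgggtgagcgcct
1700019N19Rik: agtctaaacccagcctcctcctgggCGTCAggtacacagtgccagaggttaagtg
1700001O22Rik: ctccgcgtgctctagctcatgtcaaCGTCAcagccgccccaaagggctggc
1700120B22Rik: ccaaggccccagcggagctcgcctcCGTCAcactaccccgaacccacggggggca
1700034I23Rik: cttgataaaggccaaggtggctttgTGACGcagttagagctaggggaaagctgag
1700019D03Rik: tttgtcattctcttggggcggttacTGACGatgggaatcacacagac

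In 1700016H13Rik, the gene with the largest fall, the core begins 46 and 54 bases before the 2 starts listed for it. It begins 48 bases before the start in 1700034I23Rik, 49 in 1700120B22Rik, 26 in 1700001O22Rik and 22 in 1700019D03Rik, but 152 in 1700019N19Rik. The 3 members that rose and hold a core are shown for comparison: 1700001L19Rik at chr13:68597339-68597393 (plus strand), 1700086L19Rik at chr12:74284158-74284212 (plus strand) and 1700019A02Rik at chr1:53187814-53187867 (minus strand).
1700001L19Rik: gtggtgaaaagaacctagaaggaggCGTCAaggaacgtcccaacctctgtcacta
1700086L19Rik: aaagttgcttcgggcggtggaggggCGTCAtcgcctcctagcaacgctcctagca
1700019A02Rik: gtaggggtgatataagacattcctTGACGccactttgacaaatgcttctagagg

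In these 3 genes the core begins 75, 93 and 226 bases before the start, and their changes were 0.53, 0.52 and 0.44. A match is a stretch of letters and not a measured binding site.

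Finally, the members were set beside other testis clone genes. Of 106 genes of another clone series, with names such as 4930402F06Rik, 42 were lower (39.6%) and 25 higher, with 28 falls of at least 1 (26.4%), 3 of at least 4 and a median WT level of 7.86. Of 72 genes of 4 further series, with names such as 4921504E06Rik and 4933400A11Rik, 28 were lower (38.9%) and 16 higher, with 18 falls of at least 1 (25%), 5 of at least 4 and a median WT level of 8.06. A further 595 genes have since been given another name and keep a 1700-series clone among their RefSeq synonyms. Of these, 246 were lower (41.3%) and 174 higher (29.2%), with 156 falls of at least 1 (26.2%), 54 of at least 4 (9.08%), a median WT level of 9.95 and a median change of −0.01. None of the differences between these series was tested.

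**Figure D5:**
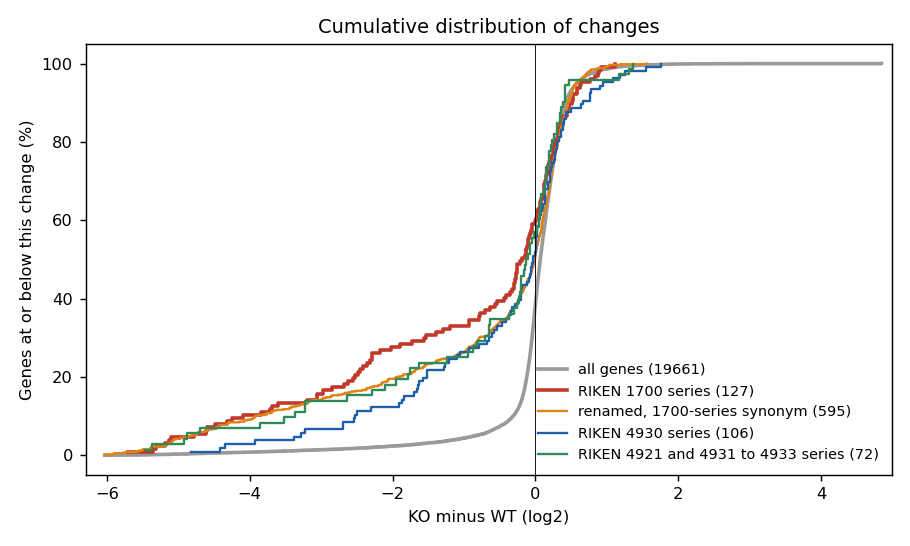
Cumulative distribution of KO minus WT changes (log2), as the percentage of genes at or below each change, for all 19661 genes, the 127 members, 595 renamed genes with a 1700-series synonym, 106 genes of the series of 4930402F06Rik and 72 of the 4 further series. All 4 groups of clone genes lie above the curve of all genes on the left side, and 33.1% of the members were called lower by at least 1.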

How the data were processed

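The authors summarised probes by RMA (XPS package, quantile normalisation) and deposited log2 expression levels, with 1 level per transcript and array. The package version and the genome build of the probe annotation are not given in the sources used here. Among 35557 rows, 9868 held no value and the other 25689 features were tested. Symbols came from the platform annotation in GEO, and gene identifiers linked 122 of 127 members to RefSeq (GRCm38.p6) for biotype, chromosome and synonyms. No member had been renamed there. KO was compared with WT with limma 3.58.1 in R 4.3.3 (lmFit and eBayes, two-sided, no covariate), with Benjamini-Hochberg adjustment over all features and a threshold of 0.05. Changes are KO minus WT in log2 with the standard error of the fit, whose median over members was 0.0943. The number of arrays limits the precision. The fit was tested on simulated data. Members and gene lists were chosen with earlier results of these data known, and the spermatid and sperm list includes genes picked by the study on these samples. Named genes were the 12 largest falls and 8 largest rises with no overlap between groups, the 6 highest WT levels, the 4 highest among members not called, the 4 largest SD over KO arrays and the 2 members on either side of the threshold, and others named were picked for their annotation, promoter or class. The parts of the rule on rows called in both directions and on renamed members named no gene. Protein lengths were not used here. Replicate numbers follow the order of deposition and pair no samples. Alternatives covered scaling, batch, array weights, the variance model, dim features, a minimum change, the choice of rows and symbols, and each array left out. Leaving out KO replicates 2 and 3 together was chosen after seeing the data.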

Additional observations from a re-analysis of the deposited data

Results flagged for a closer look

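In 60 groups of 5 arrays (30 named genes in 2 genotypes), 4 held an array far from the others of its group, and chance alone gives about 1 such array in 20 groups. That rate is only a rough guide here, since the genes share arrays and some, such as 1700104B16Rik, were named for their large SD over the KO arrays. 1700104B16Rik was at 7.29 in KO replicate 1, with the other KO arrays at 9.60 to 10.32. 1700073E17Rik was at 7.93 in WT replicate 5, with the other WT arrays at 8.76 to 9.0. 1700020D05Rik was at 10.89 in WT replicate 3, with the others at 11.31 to 11.46. 1700055D18Rik was at 8.53 in KO replicate 4, with the others at 8.18 to 8.28.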

How the results depend on the processing

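The number of members called lower stayed within 1.5 times of 60 in every alternative run, with 58 to 60 when 1 array was left out, 49 in batch 2 alone, 51 in batch 4 alone and 40 with a minimum change of 1. The number called higher was 27, with 27 to 32 when 1 array was left out, but 14 in batch 2 alone and 11 in batch 4 alone, where 4 arrays each were fitted and 1 group held a single array, assumed to vary like the others, and 0 with a minimum change of 1. The median change of −0.193 ran from −0.224 to −0.144 when 1 array was left out. It was −0.289 with arrays centred on the housekeeping list, −0.139 with the lowest 25% of features removed and −0.135 for the 122 members matched by current RefSeq symbol. Some genes that were not called changed sign: 1700006J14Rik (−0.155), 1700018B24Rik (−0.0757) and 1700028J19Rik (−0.0122) in batch 4 alone, 1700018B24Rik (−0.0332) with housekeeping centring, and 1700104B16Rik in batch 2 alone (0.197) and with 1 array left out (from −0.648 without KO replicate 4 to 0.111 without KO replicate 1). The cause was not tested. Over the 30 named genes, 280 of 300 values with 1 array left out and 351 of 390 other values kept direction and side of the threshold. No called member changed sign in any alternative run. No paired analysis was possible because the labels link no WT mouse to a KO mouse.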
